A study of Arabidopsis thaliana with 22 samples.

Results

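The *SAUR* (*SMALL AUXIN UP RNA*) genes of Arabidopsis were followed through 3′ mRNA sequencing (QuantSeq) of WT, *baf1* and *bes1-D* seedlings grown with or without brassinazole (BRZ), an inhibitor of brassinosteroid (BR) biosynthesis. The members were a list of 48 *SAUR* genes, given by their AGI locus identifiers, of the 32833 genes in the deposited table, and those averaging 10 or more normalized reads across the 22 libraries, 34 in number, are reported. The other 14 averaged less, with means from 0.162 to 9.99. They were *SAUR2*, *SAUR5*, *SAUR7*, *SAUR8*, *SAUR9*, *SAUR25*, *SAUR27*, *SAUR41*, *SAUR52*, *SAUR54*, *SAUR61*, *SAUR68*, *SAUR76* and *SAUR77*. The member just inside the minimum was *SAUR28* (10.5) and the one just outside was *SAUR52* (9.99). AT1G29510 is called *SAUR67* here and AT1G29490 *SAUR68*, although RefSeq lists both numbers for the former.

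All seedlings were whole, 7 days old and grown on solid medium, without BRZ or with 250 nM BRZ. WT was Col-0. *baf1* carries a T-DNA insertion in *BAF1*, which encodes an F-box protein of an E3 ubiquitin ligase, and was studied as 1 insertion line. *bes1-D* carries a dominant allele that stabilizes BES1, a transcription factor activated by BRs. Each genotype had 4 untreated libraries. On BRZ there were 3 libraries for WT, 4 for *baf1* and 3 for *bes1-D*. The series calls the libraries biological replicates, and the p-values measure the spread between them. In whole seedlings, fewer cells that express a gene and less RNA per cell cannot be told apart.

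SAUR proteins are small and short-lived, and many of their genes are rapidly induced by auxin. The best-studied members bind and inhibit clade D type 2C protein phosphatases (PP2C), which keeps plasma membrane H+-ATPases phosphorylated and active, acidifies the cell wall and lets cells expand. BRs act on the same growth through BES1 and its relative BZR1, and auxin response factors (ARFs) act at many of the same promoters, so *SAUR* transcripts are widely used as readouts of both hormones in elongating hypocotyls and petioles.

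The columns summed to between 3633741 and 3636541 normalized reads, and the depth behind them was estimated at 2110000 to 5160000 reads per library. *BAF1* (AT1G76920) was at 327 ± 49.2 normalized reads in untreated WT (SD, n = 4) and 9.78 ± 3.03 in untreated *baf1* (n = 4), and at 267 ± 49.8 in WT (n = 3) and 4.87 ± 5.95 in *baf1* (n = 4) on BRZ. *DWF4*, a BR biosynthesis gene that BR signalling represses, went from a mean of 106 to 229 in WT and from 84.7 to 248 in *baf1* on BRZ, and from 31.4 to 36.7 in *bes1-D*. Summed over 6 leaf photosynthesis markers, *bes1-D* libraries held 83595 to 106475 normalized reads and WT libraries 117084 to 141645. Summed over 5 root markers, all groups lay between 10530 and 14819, although single root markers differed between groups and are given beside the results they moved with. Seed storage transcripts, of which 6 of 12 were tested, summed to 138 to 1754 in *baf1* on BRZ, 23.7 to 289 in WT on BRZ and 5.31 to 16.9 in *bes1-D* on BRZ.

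Tests were made on log2(normalized reads + 1) with limma, over the 16331 genes that averaged 10 or more. A transcript is said to have risen or fallen where the Benjamini-Hochberg adjusted p-value over all of them was under 0.05. The study's own, looser criterion (a fold change over 1.1 at an unadjusted P-value below 0.05) is counted beside it. Its cut-offs were applied here to limma P-values, whereas the study used PoissonSeq, so these calls are not the study's. QuantSeq reads a transcript once from its 3′ end, so levels of different genes were set side by side without a length term.

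The family spanned a wide range of levels. *SAUR78*, whose product is known to interact with ethylene receptors, had the highest mean over the 22 libraries (716 normalized reads), followed by *SAUR6* (179), *SAUR14* (152) and *SAUR16* (152). *SAUR28* had the lowest mean of the reported members (10.5). The 34 members together summed to 2376 ± 103 normalized reads in untreated WT (n = 4) and 1874 ± 54.9 in WT on BRZ (n = 3). They summed to 2096 ± 43.4 in untreated *baf1* and 1651 ± 119 in *baf1* on BRZ (n = 4 each), and to 2677 ± 184 in untreated *bes1-D* (n = 4) and 2362 ± 221 in *bes1-D* on BRZ (n = 3). The sums of BRZ-grown libraries lay below all those of untreated libraries in WT and in *baf1*, whereas they overlapped in *bes1-D*.

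Promoters are shown for 4 members on which the results turn: *SAUR10*, *SAUR15* and *SAUR26* had the largest differences in BRZ response between *bes1-D* and WT, and *SAUR21* fell on BRZ in both WT and *baf1*. Each is the stretch of 250 bases before the start annotated by RefSeq on TAIR10.1, 5′ to 3′ on the gene's strand. They lie at chr2:7833532-7833781 for *SAUR10*, chr4:18125807-18126056 for *SAUR15*, chr5:5968102-5968351 for *SAUR21* and chr3:982807-983056 for *SAUR26*, all on the plus strand. Capitals mark matches, on either strand, to CATGTG (an E-box of the kind BES1 is known to bind), CACGTG (the G-box), CGTGTG and its variant CGTGCG (BR-response elements bound by BZR1) and TGTCTC (the auxin-response element bound by ARFs). CATGTG and TGTCTC can share letters at their ends, but did not in these 4 promoters.
SAUR10: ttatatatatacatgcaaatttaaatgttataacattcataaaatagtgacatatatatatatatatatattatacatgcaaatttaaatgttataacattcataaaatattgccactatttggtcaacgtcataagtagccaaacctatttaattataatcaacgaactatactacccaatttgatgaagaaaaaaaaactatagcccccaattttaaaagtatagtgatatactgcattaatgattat
SAUR15: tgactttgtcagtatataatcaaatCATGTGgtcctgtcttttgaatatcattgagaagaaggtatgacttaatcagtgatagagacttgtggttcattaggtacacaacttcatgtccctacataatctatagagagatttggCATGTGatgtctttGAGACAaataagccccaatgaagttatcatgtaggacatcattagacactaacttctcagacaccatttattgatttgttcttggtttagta
SAUR21: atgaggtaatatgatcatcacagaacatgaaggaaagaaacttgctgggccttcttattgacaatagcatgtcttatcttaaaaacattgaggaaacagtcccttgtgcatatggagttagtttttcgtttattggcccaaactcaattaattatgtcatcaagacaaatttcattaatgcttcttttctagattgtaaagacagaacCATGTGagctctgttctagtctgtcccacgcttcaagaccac
SAUR26: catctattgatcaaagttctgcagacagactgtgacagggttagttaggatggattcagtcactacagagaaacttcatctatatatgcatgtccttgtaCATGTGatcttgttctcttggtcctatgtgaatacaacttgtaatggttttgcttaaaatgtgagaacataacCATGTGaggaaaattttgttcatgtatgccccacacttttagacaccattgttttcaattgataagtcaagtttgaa

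The *SAUR15* promoter held CATGTG 225 and 106 bases before the annotated start and TGTCTC 92 bases before it. *SAUR21* held CATGTG 42 bases before the start, and *SAUR26* held it 150 and 77 bases before. *SAUR10* held none of the 5 motifs. Over the family, CATGTG was in 20 of 34 promoters (58.8%) against 11.1% of all 27443 promoters of the same length. TGTCTC was in 6 (17.6%) against 10.9% of all. The G-box CACGTG was in 0 members and 6.49% of all promoters. The element CGTGTG was in 0 members and 5.37% of all promoters, and the element CGTGCG in 0 members and 1.57% of all. Members of an array are copies of each other and their promoters share sequence, so these promoters are not independent of each other. A match is a string of letters and not a shown binding site.

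The first question was how BRZ changed *SAUR* transcripts in WT. 5 of the 34 members fell and 0 rose, and by the study's criterion 15 were lower and 3 higher. Of all genes tested, 0.349% fell and 0.251% rose at the adjusted threshold, and 4.88% were lower and 5.26% higher by the criterion. The median log2 change was -0.47 over the members and 0.03 over all genes tested, with 24 members below 0 and 10 above it. Of all genes tested, 44.8% were below 0. The members that fell were *SAUR10*, *SAUR15*, *SAUR16*, *SAUR21* and *SAUR29*.

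*SAUR10* (AT2G18010), a growth-promoting member induced by both auxin and BRs, had the largest change of the family. It was at 28.4, 34.9, 26.5 and 26.1 normalized reads in untreated WT and at 4.94, 0.749 and 3.10 in WT on BRZ. Every BRZ library lay far below every untreated one. The fitted change was -3.09 on the log2 scale (SE 0.42, 8.53-fold lower, adjusted p = 0.00219). *SAUR15* (AT4G38850), first described as *SAUR-AC1* and a well-known BES1 target, was at 30.6, 36.7, 32.0 and 28.2 in untreated WT and at 9.56, 6.98 and 6.84 on BRZ. The groups did not overlap, and the change was -1.91 (SE 0.28, 3.76-fold lower, adjusted p = 0.0041).

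*SAUR16* (AT4G38860), a neighbour of *SAUR15* known for its part in light-induced cotyledon opening, was far more abundant. It was at 141, 147, 171 and 200 in untreated WT and at 87.8, 76.0 and 104 on BRZ, without overlap, a change of -0.88 (SE 0.16, adjusted p = 0.0216). *SAUR21* (AT5G18030), of the *SAUR19* to *SAUR24* cluster that drives hypocotyl elongation, was at 78.2, 78.0, 106 and 109 untreated and at 35.7, 33.6 and 49.2 on BRZ. It fell by 1.21 on the log2 scale (SE 0.20, adjusted p = 0.00894), again without overlap. *SAUR29* (AT3G03820), of a chromosome 3 array whose members shape growth at warm temperature, was at 29.8, 33.8, 33.0 and 39.5 untreated and at 13.6, 8.37 and 14.6 on BRZ. Its change was -1.44 (SE 0.28, adjusted p = 0.0249), with no overlap.

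The other 10 members lower by the criterion were *SAUR14*, *SAUR20*, *SAUR22*, *SAUR23*, *SAUR24*, *SAUR26*, *SAUR50*, *SAUR62*, *SAUR64* and *SAUR66*, with adjusted p-values from 0.105 to 0.434. The 3 higher by it were *SAUR6* (log2 change 0.38), *SAUR36* (0.46) and *SAUR51* (0.59), with adjusted p-values from 0.341 to 0.479. *SAUR10* and *SAUR15* passed the adjusted threshold whichever library was left out. The count of 5 became 3 without untreated WT replicate 2 or 4 or BRZ-grown WT replicate 1. It became 2 without BRZ-grown WT replicate 2, and 0 with no filter on low values. Counts of members from such refits, here and below, have no share of all genes beside them. By the criterion the root markers *TIP2;3* (0.64) and *EXPA7* (0.64) were higher on BRZ and *CASP1* (-0.33) was lower. The leaf marker *CAB1* (0.39) and the seed storage marker *SESA2* (2.32) were higher, and the median of the 6 seed storage markers tested was 1.53. Of these markers 0 passed the adjusted threshold, and their part in the result was not tested.

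**Figure D1:**
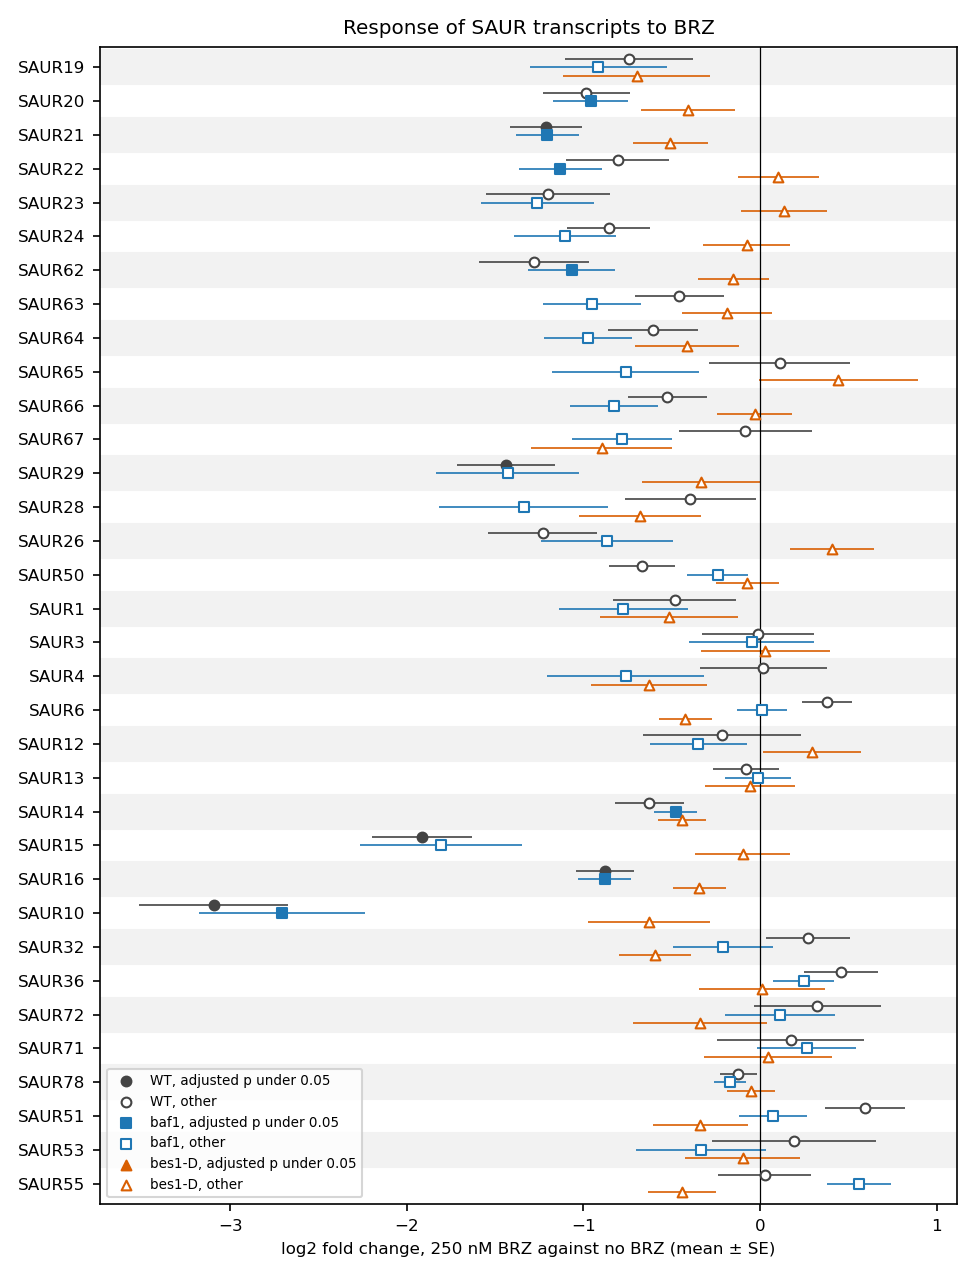
Fitted log2 fold change (x axis, mean ± SE) of each of the 34 reported *SAUR* transcripts (y axis, grouped by gene array) on 250 nM BRZ in WT (circles), *baf1* (squares) and *bes1-D* (triangles), with filled symbols for an adjusted p under 0.05. *SAUR10* stands farthest to the left in WT (-3.09) and *baf1* (-2.71), while its *bes1-D* value is -0.63 and no *bes1-D* symbol is filled.

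The response of *baf1* to BRZ was in the same direction and reached 7 members. *SAUR10*, *SAUR14*, *SAUR16*, *SAUR20*, *SAUR21*, *SAUR22* and *SAUR62* fell and 0 rose, against 0.906% of all genes that fell and 0.906% that rose. By the criterion 19 were lower and 1 higher (*SAUR55*, log2 change 0.56, adjusted p = 0.155), against 6.21% and 6.17% of all genes. The median change was -0.78 over the members and 0.01 over all genes. The WT and *baf1* responses come from separate libraries. *SAUR10*, *SAUR16* and *SAUR21* fell in both, and 14 members were lower in both by the criterion. The share of all genes that were lower in both was not counted, so these shared counts have no background beside them.

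*SAUR10* was at 27.2, 14.9, 22.8 and 19.6 in untreated *baf1* and at 7.32, 2.05, 2.08 and 0.55 on BRZ. The groups did not overlap and the change was -2.71 (SE 0.47, adjusted p = 0.00379). *SAUR16* was at 126, 148, 118 and 141 untreated and at 80.4, 62.2, 87.1 and 60.8 on BRZ, a change of -0.88 (SE 0.15, adjusted p = 0.00361) that matched its WT value to 2 decimals. *SAUR15* was at 20.04, 22.4, 21.7 and 13.4 untreated and at 7.15, 1.94, 13.1 and 2.18 on BRZ. These groups were also apart, and the change of -1.81 (SE 0.46) had an adjusted p of 0.0506.

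In the *SAUR19* to *SAUR24* cluster, *SAUR21* was at 69.6, 62.0, 79.5 and 58.5 in untreated *baf1* and at 28.9, 24.98, 30.2 and 30.2 on BRZ (log2 change -1.20, SE 0.18, adjusted p = 0.00118). *SAUR22* was at 39.1, 31.1, 51.3 and 52.9 untreated and at 18.7, 20.05, 23.6 and 14.5 on BRZ (-1.13, SE 0.24, adjusted p = 0.0154). *SAUR20* was at 39.0, 52.1, 40.6 and 46.2 untreated and at 24.9, 22.8, 25.5 and 16.8 on BRZ (-0.96, SE 0.21, adjusted p = 0.0235). In all 3 genes every BRZ library lay below every untreated one. *SAUR62* (AT1G29430), of the *SAUR61* to *SAUR68* cluster and known for a role in pollen tube growth, was at 60.0, 37.4, 43.3 and 43.0 untreated and at 23.1, 16.8, 32.3 and 15.6 on BRZ (-1.07, SE 0.25, adjusted p = 0.0311). *SAUR14* was at 137, 160, 152 and 164 untreated and at 119, 106, 101 and 113 on BRZ (-0.48, SE 0.12, adjusted p = 0.0493). Neither gene's groups overlapped.

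*SAUR10*, *SAUR16* and *SAUR21* kept an adjusted p under 0.05 with each *baf1* library left out. The count of 7 became 3 without untreated *baf1* replicate 3 or 4, 1 with no filter on low values, and 13 when all 22 libraries were fitted together. In the same comparison the seed storage sums ranged from 6.63 to 497 normalized reads in untreated *baf1* and from 138 to 1754 on BRZ, which overlapped, and 1 of the 6 tested, *SESA3*, rose. By the criterion 5 of the 6 were higher, and their median log2 change was 2.99. Of the root markers, the aquaporin gene *TIP2;3* rose (0.93, SE 0.09, adjusted p = 1.08e-05), and of the leaf markers *CAB1* did (0.35, SE 0.08, adjusted p = 0.0373). The other root markers had negative changes, from -0.44 (*SHV2*) to -0.06 (*PYK10*), and met neither rule. By the criterion 3 leaf markers were higher and 1, *RBCS3B* (-0.48), was lower. The part of these in the result was not tested.

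Whether *baf1* and WT differed in their response was tested as an interaction. 0 members passed the adjusted threshold, 0 had an unadjusted P-value under 0.05, and of all genes tested 0% and 5.79% did. The interaction of *SAUR10* was 0.38 (95% interval -0.90 to 1.67), that of *SAUR15* 0.11 (-1.03 to 1.24), that of *SAUR16* 0.00 (-0.44 to 0.44) and that of *SAUR21* 0.01 (-0.50 to 0.51). The intervals of *SAUR10* and *SAUR15* were wider than those of *SAUR16* and *SAUR21*. At an unadjusted P-value under 0.05, 1 root marker had a negative interaction and 1 seed storage marker a positive one, and their part was not tested.

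In *bes1-D*, 0 members passed the adjusted threshold on BRZ, where 0.576% of all genes did, so this count does not set the members apart from other genes. By the criterion 7 were lower (*SAUR6*, *SAUR14*, *SAUR16*, *SAUR21*, *SAUR32*, *SAUR55* and *SAUR67*) and 0 higher, against 8.22% and 6.36% of all genes. The median change over the members was -0.26, against 0.00 over all genes. *SAUR10* was at 24.4, 19.5, 19.6 and 22.4 in untreated *bes1-D* and at 26.8, 9.89 and 9.04 on BRZ. Replicate 1 on BRZ lay above all untreated libraries and the other 2 below them, and the change was -0.63 (SE 0.35, adjusted p = 0.416). *SAUR15* was at 37.6, 25.2, 29.5 and 19.4 untreated and at 26.2, 22.9 and 27.1 on BRZ. The groups overlapped and the change was -0.10 (SE 0.27, adjusted p = 0.908). Without *bes1-D* replicate 1 on BRZ, 4 members passed the adjusted threshold. The share of 0.576% is for the fit with that library, so this count has no background beside it. By the criterion 1 of the 5 root markers was higher on BRZ and 2 were lower, and 2 of the 6 leaf markers were lower. Of the root, leaf and seed storage markers 0 passed the adjusted threshold, and their part in these values was not tested.

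The difference between the *bes1-D* and WT responses was tested directly. 1 member, *SAUR15*, passed the adjusted threshold, with an interaction of 1.81 (SE 0.37, 95% interval 1.09 to 2.54, adjusted p = 0.0338), where 0.171% of all genes passed in that direction. At an unadjusted P-value under 0.05 there were 11 members on the positive side, meaning a smaller fall or a rise in *bes1-D*, and 3 on the negative side, against 6.14% and 7.54% of all genes. The median interaction was 0.19 over the members and -0.03 over all genes.

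*SAUR10* had the largest interaction, 2.47 (SE 0.56, 95% interval 1.37 to 3.56), with an adjusted p of 0.0603. *SAUR26* followed *SAUR15*, with 1.64 (SE 0.36, adjusted p = 0.0569). The other positive members were *SAUR21*, *SAUR22*, *SAUR23*, *SAUR24*, *SAUR29*, *SAUR50*, *SAUR62* and *SAUR16*, between 0.53 and 1.34, and the 3 negative ones were *SAUR6* (-0.80), *SAUR32* (-0.87) and *SAUR51* (-0.93). The call of *SAUR15* held without untreated WT replicate 5, BRZ-grown WT replicate 1, untreated *bes1-D* replicate 1 or BRZ-grown *bes1-D* replicate 1, and was lost without any other single library, with interactions between 1.66 and 1.88. It was also lost when all 22 libraries were fitted together, with a replicate block and with no filter on low values. At an unadjusted P-value under 0.05, 2 of the 5 root markers and 1 of the 6 leaf markers had a negative interaction, and their part was not tested.

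**Figure D2:**
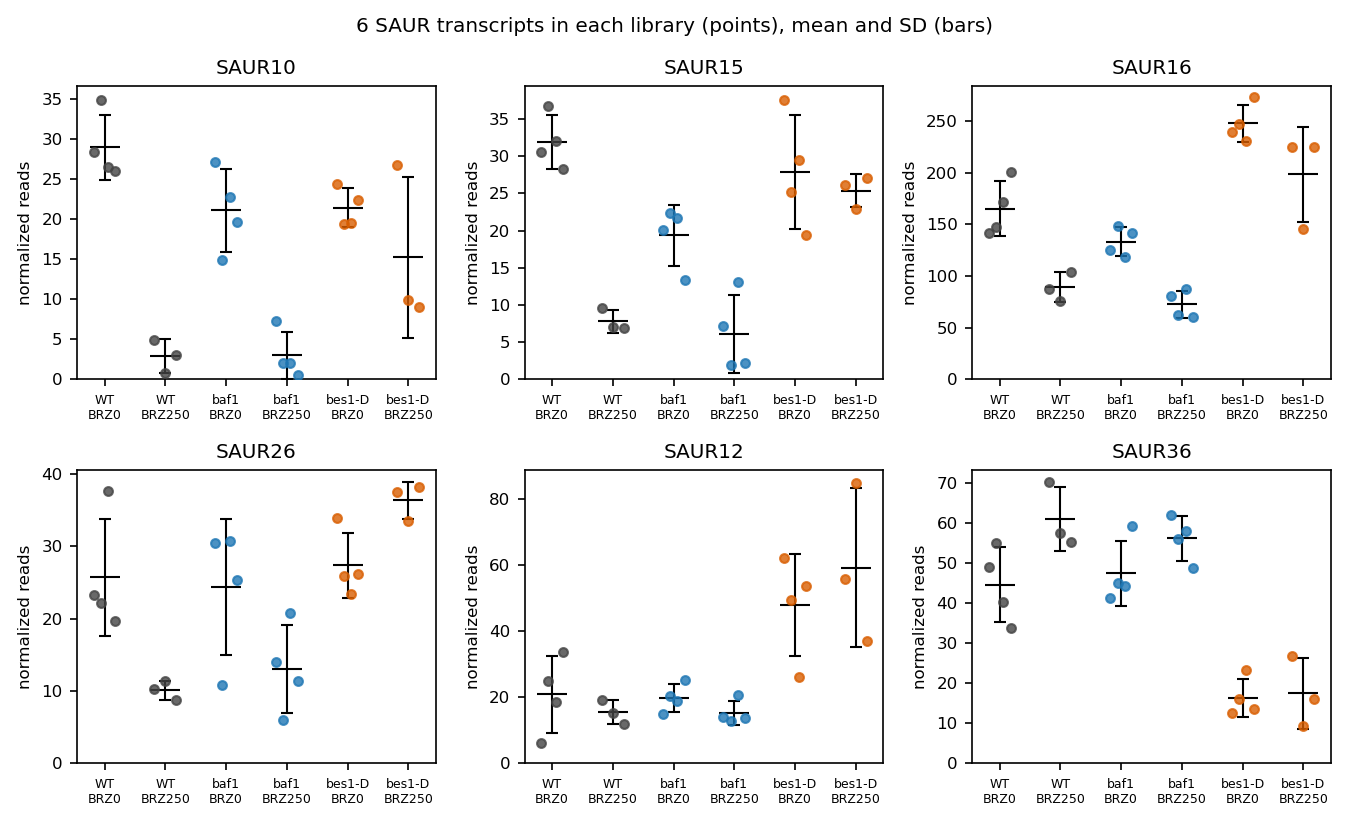
Normalized reads (linear y axis) of 6 *SAUR* transcripts in every library, by genotype and BRZ (x axis, 0 or 250 nM), with 1 point per library, a horizontal bar at the group mean and a whisker of 1 SD, the lower part of which is cut at 0. *SAUR10*, *SAUR15*, *SAUR16* and *SAUR26* are low on BRZ in WT, and *SAUR12* (high) and *SAUR36* (low) are set apart in *bes1-D* on BRZ.

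Genotypes were then compared within each medium, with both mutants set against the same WT libraries. On BRZ, *bes1-D* and WT differed in 10 members. Of the 34, 8 (23.5%) were higher in *bes1-D* and 2 (5.88%) lower, against 5.76% and 5.3% of all genes. By the criterion 12 (35.3%) were higher and 3 (8.82%) lower, against 13.6% and 10.7%. The counts of lower members do not set the members apart from other genes. The median difference was 0.16 over the members and 0.04 over all genes. This comparison shares its WT libraries with the BRZ response of WT, so the same low WT values enter both.

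Of the members already given, *SAUR10* differed by 2.05 (SE 0.61, 4.15-fold, adjusted p = 0.0314), *SAUR15* by 1.60 (SE 0.37, 3.02-fold, adjusted p = 0.00688) and *SAUR16* by 1.13 (SE 0.20, 2.18-fold, adjusted p = 0.000546). *SAUR16* was at 225, 145 and 225 in *bes1-D* on BRZ, all above the 3 WT libraries. *SAUR26* (AT3G03850), of the same array as *SAUR29*, was at 37.5, 33.5 and 38.2 in *bes1-D* on BRZ and at 10.2, 11.3 and 8.72 in WT on BRZ. That is 3.38-fold higher (log2 difference 1.76, SE 0.32, adjusted p = 0.000924). In untreated libraries it was at 33.9, 25.8, 23.5 and 26.2 in *bes1-D* and at 23.3, 22.1, 37.7 and 19.7 in WT, which overlapped.

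*SAUR12* was at 55.8, 84.9 and 37.1 in *bes1-D* on BRZ and at 19.1, 15.4 and 11.9 in WT on BRZ, 3.53-fold higher (1.82, SE 0.32, adjusted p = 0.000569). *SAUR23* was at 39.8, 30.1 and 35.1 against 19.1, 7.23 and 21.3 (1.21, SE 0.36, adjusted p = 0.0331). *SAUR62* was at 60.9, 47.1 and 50.2 against 46.7, 14.7 and 20.9 (1.07, SE 0.33, adjusted p = 0.0372). No *bes1-D* library of these 3 genes overlapped WT. *SAUR66* was at 70.3, 55.5 and 63.3 against 44.8, 30.3 and 35.6 (0.77, SE 0.24, adjusted p = 0.0393), also without overlap.

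*SAUR36* and *SAUR51* went the other way. *SAUR36* (AT2G45210), known as an auxin-induced promoter of leaf senescence, was at 26.8, 9.32 and 16.1 in *bes1-D* on BRZ and at 70.1, 57.4 and 55.3 in WT on BRZ. It was 3.62-fold lower (-1.86, SE 0.32, adjusted p = 0.000526). *SAUR51* was at 17.3, 22.3 and 28.1 against 44.5, 67.5 and 48.4, 2.31-fold lower (-1.21, SE 0.28, adjusted p = 0.00635). Neither overlapped. *SAUR12*, *SAUR15*, *SAUR16*, *SAUR26*, *SAUR36* and *SAUR51* passed whichever library was left out, whereas *SAUR10*, *SAUR62* and *SAUR66* passed only without BRZ-grown WT replicate 1, and *SAUR23* only without BRZ-grown WT replicate 1 or 3. The count of 10 became 6 without BRZ-grown WT replicate 2 and 2 with no filter on low values.

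Without BRZ, *bes1-D* and WT differed in 5 members, 3 (8.82%) higher and 2 (5.88%) lower, against 4.04% and 3.46% of all genes. By the criterion 7 (20.6%) were higher and 5 (14.7%) lower, against 14.1% and 8.11%. With median-of-ratios size factors the criterion gave 5 higher and 6 lower. The shares of all genes above are for the deposited scaling, and with it the median difference was 0.00 over the members and 0.08 over all genes. *SAUR6* was at 219, 229, 272 and 234 in *bes1-D* and at 129, 149, 125 and 152 in WT (0.78, SE 0.12, 1.71-fold, adjusted p = 0.000436). *SAUR16* was at 240, 247, 231 and 273 in *bes1-D* (0.59, SE 0.12, 1.51-fold, adjusted p = 0.00658). Both genes were higher in every *bes1-D* library than in any WT library.

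*SAUR12* was at 62.4, 49.3, 26.1 and 53.6 in untreated *bes1-D* and at 6.07, 25.02, 18.6 and 33.7 in WT. The groups overlapped, and the difference of 1.31 (SE 0.39, adjusted p = 0.0497) was lost without any single library other than WT replicate 5 or *bes1-D* replicate 3. *SAUR13* was at 33.3, 53.9, 39.1 and 39.7 in *bes1-D* and at 59.4, 73.2, 75.01 and 79.3 in WT (-0.79, SE 0.18, 1.73-fold lower, adjusted p = 0.0114). *SAUR36* was at 12.6, 16.0, 23.2 and 13.5 against 49.0, 54.9, 40.2 and 33.8 (-1.41, SE 0.24, 2.65-fold lower, adjusted p = 0.00141). The last 2 genes had no overlap. *SAUR36* was thus lower in *bes1-D* on both media. Markers of organs moved with these differences. Of the 6 leaf photosynthesis markers, 4 were lower in *bes1-D* than in WT without BRZ and 3 on BRZ, and 0 were higher, while *RBCS3B* had a difference of 0.37 without BRZ (adjusted p = 0.219). Of the 5 root markers, *TIP2;3* was lower without BRZ (-0.97, adjusted p = 0.000795), and on BRZ 3 were lower, namely *TIP2;3* (-1.02, adjusted p = 0.00102), *EXPA7* (-0.87, adjusted p = 0.0217) and *SHV2* (-1.13, adjusted p = 0.0142). Of the 6 seed storage markers tested, 1 was lower without BRZ and 3 on BRZ, where their median difference was -2.50. The part of these markers in the *SAUR* differences was not tested.

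**Figure D3:**
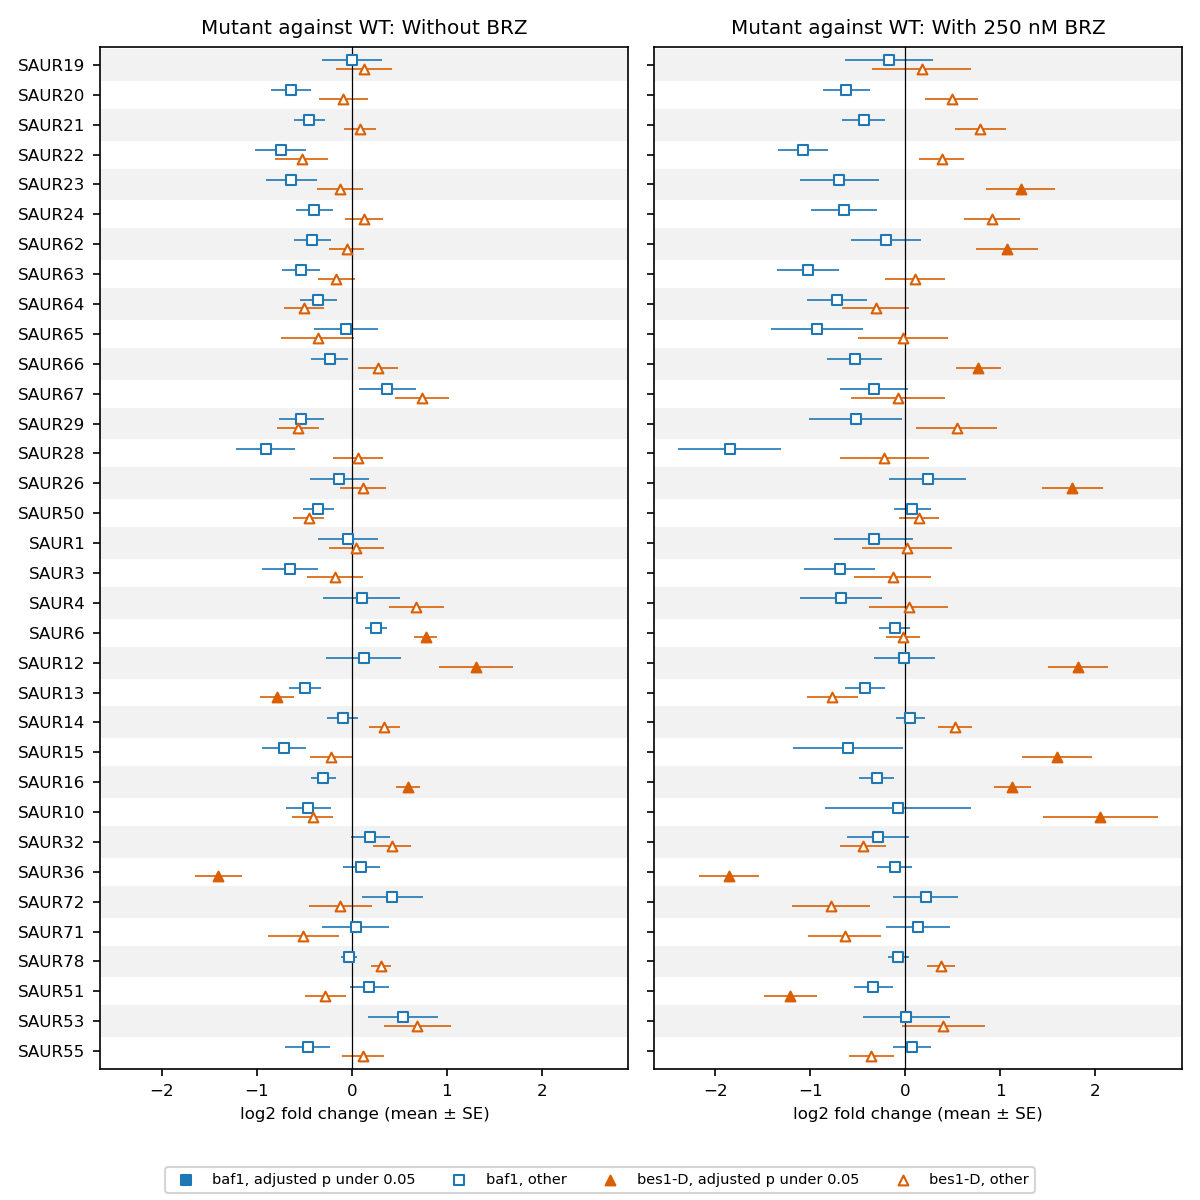
Fitted log2 difference (x axis, mean ± SE) of *baf1* (squares) and *bes1-D* (triangles) from WT for the 34 *SAUR* transcripts (y axis), without BRZ (left) and with 250 nM BRZ (right), with filled symbols for an adjusted p under 0.05. No *baf1* symbol is filled, and *SAUR10* (2.05) and *SAUR36* (-1.86) lie farthest apart among the *bes1-D* values on BRZ.

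In *baf1* without BRZ, 0 members passed the adjusted threshold, where 0.129% of all genes did. By the criterion 13 were lower and 1 higher (*SAUR6*, 0.26), against 4.3% and 5.96% of all genes. Median-of-ratios size factors gave 14 lower and 0 higher, whereas the shares of all genes above are for the deposited scaling. The median difference was -0.27 over the members and 0.04 over all genes, and 23 of the 34 members were below 0, against 43.7% of all genes. *SAUR15* was at 20.04, 22.4, 21.7 and 13.4 in *baf1*, below all 4 WT libraries, a difference of -0.71 (SE 0.23, adjusted p = 0.308). *SAUR28* was at 6.40, 7.54, 9.89 and 6.73 in *baf1* and at 14.6, 12.5, 18.9 and 14.7 in WT, also without overlap (-0.91, SE 0.31, adjusted p = 0.327). The count of 14 became 8 without WT replicate 4 and 9 without *baf1* replicate 2 or 4, and 1 member passed the adjusted threshold without WT replicate 5. Of the 5 root markers, *TIP2;3* was lower in *baf1* (-0.68, SE 0.12, adjusted p = 0.0221), while *EXPA7* (0.32) and *SHV2* (0.02) lay above 0. By the criterion *CASP1* (-0.26) was also lower, and the leaf markers *RBCS1A* (0.27) and *RBCS3B* (0.39) were higher. The other leaf markers lay between -0.09 (*CAB2*) and -0.06 (*CAB1*). The part of these markers in the *SAUR* values was not tested.

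On BRZ, 0 members differed between *baf1* and WT at the adjusted threshold, where 0.049% of all genes did. By the criterion 5 were lower and 0 higher, against 2.54% and 3.03% of all genes. These were *SAUR20*, *SAUR22*, *SAUR28*, *SAUR63* and *SAUR64*, with adjusted p-values from 0.347 to 0.873. The median difference was -0.33 over the members and 0.01 over all genes. *SAUR22* was at 18.7, 20.05, 23.6 and 14.5 in *baf1* and at 36.0, 53.9 and 35.8 in WT, without overlap (-1.08, SE 0.26, adjusted p = 0.347). *SAUR10* was low in both genotypes, and its difference was -0.07 (SE 0.77, adjusted p = 0.998). The count of 5 became 3 without *baf1* replicate 4 and 8 without *baf1* replicate 1 or 3. Of the 6 seed storage markers tested, 5 were higher in *baf1* by the criterion and 0 at the adjusted threshold (median difference 2.42), and of the 5 root markers 2 were lower by the criterion, and their part in these values was not tested.

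The clustered arrays were also described as sums, because near-identical copies can exchange reads. Of the stretches of 50 bases in the last 300 bases of each transcript, 13.9% recurred elsewhere in the genome for *SAUR19* and 10.4% for *SAUR20*. The share was 6.77% for *SAUR62*, 3.59% for *SAUR24* and 0 for the other reported members. The division of reads among those 4 and their copies is therefore uncertain. The 6 transcripts of *SAUR19* to *SAUR24*, which promote hypocotyl elongation, summed to 346 ± 88.6 normalized reads in untreated WT (n = 4) and 168 ± 15.7 in WT on BRZ (n = 3). In *baf1* the sums were 231 ± 19.9 and 105 ± 18.8 (n = 4 each), and in *bes1-D* 324 ± 62.1 (n = 4) and 278 ± 72.1 (n = 3). BRZ-grown libraries lay below all untreated ones in WT and *baf1*, and overlapped with them in *bes1-D*.

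All 6 members of that cluster had a negative change on BRZ in WT and in *baf1*, with medians of -0.92 and -1.12, and 4 of 6 had one in *bes1-D*, with a median of -0.24. *SAUR19* (AT5G18010), whose product is the model inhibitor of PP2C phosphatases, was at 17.1, 16.5, 17.99 and 9.67 in untreated WT and at 8.45, 6.27 and 11.5 on BRZ, with overlap. *SAUR24* was at 50.4, 34.6, 60.0 and 57.5 in untreated WT and at 30.5, 23.3 and 27.5 on BRZ, without overlap (-0.86, adjusted p = 0.164). *SAUR23* was at 23.9, 32.8, 37.6 and 47.9 untreated and at 19.1, 7.23 and 21.3 on BRZ, also apart (-1.20, adjusted p = 0.193). Neither passed the adjusted threshold.

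The 6 reported transcripts of *SAUR61* to *SAUR68* summed to 221 ± 15.02 in untreated WT and 147 ± 34.0 on BRZ, to 181 ± 15.7 and 95.9 ± 24.9 in *baf1*, and to 224 ± 26.6 and 201 ± 53.4 in *bes1-D* (n as above). The order of the groups was like that of the other cluster, with *baf1* on BRZ lowest. *SAUR63* (AT1G29440), known to promote elongation of hypocotyls and floral organs, ranged from 18.4 to 42.5 in WT over both media and from 8.79 to 26.6 in *baf1*. *SAUR64* (11.3 to 43.4), *SAUR65* (3.29 to 19.3) and *SAUR67* (8.05 to 45.0) are given by their range over all libraries. None of these 4 passed the adjusted threshold in any comparison.

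**Figure D4:**
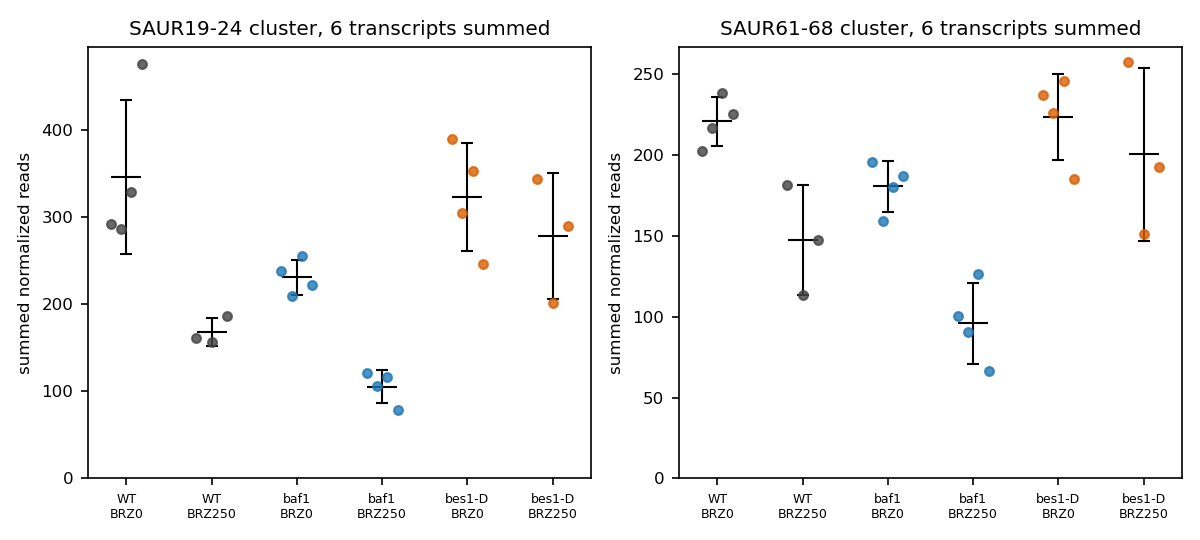
Summed normalized reads (y axis from 0) of the 6 reported transcripts of each *SAUR* cluster in every library, by genotype and BRZ (x axis), with 1 point per library, a bar at the group mean and a whisker of 1 SD. In both panels *baf1* on BRZ has the lowest mean (105 and 95.9).

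On BRZ in WT the 8 reported dispersed members (*SAUR32*, *SAUR36*, *SAUR51*, *SAUR53*, *SAUR55*, *SAUR71*, *SAUR72* and *SAUR78*) had changes between -0.12 and 0.59 with a median of 0.23, and 0 passed the adjusted threshold. In *baf1* on BRZ their median was 0.09. *SAUR78* ranged from 557 to 742 in WT and *baf1*, and from 658 to 1032 in *bes1-D*. *SAUR53*, *SAUR65*, *SAUR71* and *SAUR72* met neither rule in any comparison. *SAUR1*, *SAUR3* and *SAUR4*, of the array that also holds *SAUR50*, had means between 13.2 and 17.1 and passed no adjusted threshold.

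The other parts of the growth pathway were counted from lists of their genes. Of the PP2C clade D phosphatases, the targets of SAUR proteins, 8 of 9 were tested. On BRZ in WT and in *baf1* 0 passed the adjusted threshold, and by the criterion 0 did in WT while 2 were higher and 1 lower in *baf1*. In *bes1-D* AT5G02760 was lower than in WT without BRZ (-0.80, SE 0.15, adjusted p = 0.0031) and with it (-0.63, SE 0.18, adjusted p = 0.0272), and AT4G38520 was higher on BRZ (0.64, SE 0.17, adjusted p = 0.0154).

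Of the plasma membrane H+-ATPases, the pumps that this pathway activates, 6 of 11 were tested, and 0 passed either rule on BRZ in WT, *baf1* or *bes1-D*. *HA2* (AHA2), one of the main pumps of the plant, was higher in *bes1-D* than in WT without BRZ (0.37, SE 0.10, adjusted p = 0.0292) and on BRZ (0.64, SE 0.14, adjusted p = 0.00349). *HA11* was lower on BRZ (-0.70, SE 0.20, adjusted p = 0.0301).

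Of the auxin receptors and activating ARFs, upstream of *SAUR* genes, 10 of 10 were tested. *ARF6*, whose product acts with BZR1 and PIF factors in hypocotyl elongation, rose on BRZ in *baf1* (0.74, SE 0.15, adjusted p = 0.00955), and its WT value was 0.55 (SE 0.14, adjusted p = 0.14). It was lower in *bes1-D* than in WT without BRZ (-0.92, SE 0.17, adjusted p = 0.00201) and on BRZ (-1.30, SE 0.20, adjusted p = 0.000153). The receptor genes *TIR1* (-0.76, adjusted p = 0.0119) and *AFB5* (-0.50, adjusted p = 0.0275) were also lower in *bes1-D* on BRZ. No gene of the 3 lists passed the adjusted threshold between *baf1* and WT on either medium.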

How the data were processed

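Whole seedlings were profiled by QuantSeq 3′ mRNA sequencing (50-bp single-end reads), and the authors mapped the reads to TAIR10. The submitters' processing notes name STAR, HTSeq and edgeR. The authors deposited a normalized signal for each gene in each library, in 1 table whose file name gives TMM normalization, with near-equal column totals and values that are not whole, so no count model was fitted. This hides depth, which was estimated from 300 genes by undoing an assumed quantile adjustment to a common library size (negative binomial, dispersion 0.05). Low values rest on few reads, and errors cover these libraries only. 0 per-sample columns were left unmapped.

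Each pair of groups was fitted on its own libraries, and each interaction on its 4 groups, on log2(signal + 1) by the moderated linear models of limma 3.58.1 (R 4.3.3, eBayes with trend = TRUE), a scale that understates changes of low genes. Genes with a mean of at least 10 over the 22 libraries were tested (49.7% of the table), and p-values were adjusted over all of them by the Benjamini-Hochberg method. Intervals are 95% normal intervals from the fitted SE. All 48 names were found among RefSeq symbols or synonyms, and 32548 of 32833 identifiers matched RefSeq. Promoters come from RefSeq's TAIR10.1 genome and annotation, whereas the deposited table holds no coordinates. Values by library are given for members with an adjusted p-value under 0.05 in any comparison, for *SAUR10* and for cluster members, the latter in part by range. *SAUR28* is given as the lowest reported member. The members and lists were chosen with earlier results of these data known.

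Replicate numbers were checked for pairing. Alternatives were pseudocounts of 5 and 0.1, no filter, size factors by the median of ratios, a minimum mean of 50, a fit of all 22 libraries, a replicate block, leaving out each library, and, chosen after seeing the data, a filter over the fitted libraries. Figures were drawn with matplotlib 3.10.9.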

Additional observations from a re-analysis of the deposited data

Results flagged for a closer look

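*SAUR22* was at 143 normalized reads in untreated WT replicate 5, whereas the other 3 untreated WT libraries lay between 56.7 and 58.7. *SAUR29* was at 31.0 in untreated *bes1-D* replicate 1, with the other 3 between 19.4 and 20.8. *SAUR12* was at 20.7 in *baf1* replicate 3 on BRZ, with the other 3 between 12.9 and 13.99. Each is a library far from the rest of its group by Dixon's test at the 95% level. Of 92 groups of 4 libraries examined over 23 members, 3 stood out in this way, and chance alone does so in about 1 in 20 groups.

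The BRZ response of *SAUR15* differed between *bes1-D* and WT by a test of the difference itself (interaction 1.81 on the log2 scale, limma adjusted p = 0.0338). Among BRZ-grown libraries, *SAUR15* was higher in every *bes1-D* library than in any WT library. The interaction call held in 4 of 14 refits with 1 library left out.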

How the results depend on the processing

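Of 28 calls of a member in a comparison, refitted 409 times in all, 309 refits kept the call, 100 lost it and 0 changed direction. A pseudocount of 5 and a filter over the fitted libraries (chosen after seeing the data) lost 0 calls, median-of-ratios size factors 1, a pseudocount of 0.1 lost 2, the fit of all 22 libraries 3, the replicate block 7 and no filter on low values 23. Leaving out 1 library lost the call in 64 of 205 refits. The causes were not tested, except that a minimum mean of 50 left 9 members to test.

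The counts of members at the adjusted threshold moved as follows. All counts from refits in this section are of members only, without the share of all genes called in the same fit. They do not show whether a move was particular to the members. With no filter on low values they were 2 for *bes1-D* against WT without BRZ, 0 for BRZ in WT, 1 for BRZ in *baf1*, 2 for *bes1-D* against WT on BRZ and 0 for the *bes1-D* interaction. At a minimum mean of 50 they were 3, 2, 3, 2 and 0 in the same order. A pseudocount of 5 gave 11 for BRZ in *baf1*. The fit of all 22 libraries gave 13 for BRZ in *baf1*, 1 for *baf1* against WT on BRZ and 0 for the *bes1-D* interaction. By the study's criterion a minimum mean of 50 gave 4 for *baf1* and 5 for *bes1-D* against WT without BRZ, 5 for BRZ in WT, 4 for BRZ in *baf1*, 0 for *baf1* and 5 for *bes1-D* against WT on BRZ, and 5 for the *bes1-D* interaction (unadjusted). The fit of all 22 libraries gave 8 and 9 for *baf1* against WT without and with BRZ by the criterion.

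With each library left out in turn, the adjusted counts ranged from 0 to 1 for *baf1* and 4 to 6 for *bes1-D* against WT without BRZ, 2 to 6 for BRZ in WT, 3 to 10 in *baf1* and 0 to 4 in *bes1-D*, 6 to 10 for *bes1-D* against WT on BRZ, and 0 to 3 for the *bes1-D* interaction. By the criterion they ranged from 8 to 14 for *baf1* against WT without BRZ, 3 to 8 with it, and 4 to 10 for BRZ in *bes1-D*, and at unadjusted P from 0 to 2 for the *baf1* interaction and 8 to 14 for the *bes1-D* interaction, the lowest without *bes1-D* replicate 5 on BRZ.

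Deviations of same-numbered libraries correlated between -0.35 and 0.41, and in no comparison with 3 or more pairs were all above 0.1. The samples were therefore not treated as paired. Correlations of replicate 1 were positive in every comparison of 2 groups (0.13 to 0.41), and whether those libraries share an effect was not tested. With a replicate block the adjusted counts were 1 for *baf1* and 8 for *bes1-D* against WT without BRZ, 8 for BRZ in WT and 0 for the *bes1-D* interaction. The fits of 2 groups kept only replicate numbers present in both (2 numbers for BRZ in WT), so these counts also reflect dropped libraries. By the criterion the block gave 9 and 3 for *baf1* against WT without and with BRZ, and at unadjusted P 2 for the *baf1* and 8 for the *bes1-D* interaction. Among all genes called by the criterion, median-of-ratios size factors moved the share that were higher from 58.1% to 46.2% for *baf1* and from 63.5% to 46.1% for *bes1-D* against WT without BRZ.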
